A study of Macaca mulatta with 38 samples.

Results

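The comparison set cultured neural stem cells of the Frontal cortex against those of the Occipital cortex of E77 rhesus macaque (Macaca mulatta) fetuses, while both were kept growing with FGF2. It used 6 of the 38 bulk RNA-seq libraries of the series. These were E77 Frontal on days 1, 3 and 5 in vitro and E77 Occipital on the same days, picked out by their labels, 3 against 3 and paired by day. All 6 were labelled as WT cortical neural stem cells. They were plated on a fibronectin coat in N2 medium, with FGF2 added each day, and RNA was taken from 2 wells per condition. Set beside them were the 8 libraries of E77 Frontal and Occipital cells on days 11, 14, 17 and 20, after FGF2 was replaced by NeuroBasal medium with B27, BDNF and NT-3. Also set beside them were 6 stem-phase libraries of E42 cortex, Anterior and Posterior, on days 1, 3 and 5.

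The cerebral cortex is divided into areas along a front-to-back axis. In the embryo, FGF ligands from the rostral end and WNT and BMP ligands from the dorsal midline and caudal end set opposed gradients of transcription factors in cortical progenitors. NR2F1 and EMX2 are high caudally, while SP8 and PAX6 are high rostrally in mouse. FGF2, the growth factor given here, keeps cortical progenitors dividing in culture.

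Counted reads per library ranged from 21324987 to 26694277 in the 6 libraries. Of the 34619 genes in the count table, 20794 were tested, and their median log2 fold change of Frontal over Occipital was 0.00. Levels are given as CPM (read counts relative to the library total, scaled by TMM factors), in the order of days 1, 3 and 5, and fold changes on the log2 scale with the standard error (SE) of the fit. SOX2, a progenitor transcription factor that marks the labelled cells, was present in all 6 libraries, at 555, 523 and 652 CPM in the Frontal libraries, against 694, 666 and 737 CPM in the Occipital ones. Of 12 hindbrain and spinal genes 7, all of the HOX genes among them, were too low to test. Each region had 1 library per day, and the labels do not say that libraries came from separate animals or cultures. P-values rest on a spread estimated over all 38 libraries of the series, after group and day, and not on repeats of a region and day. That spread may be technical, and region cannot be told apart from fetus, dissection and culture run.

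Of the genes that mark the back of the cortex, NR2F1, NR2F2 and FGFR3 had the largest called differences, and no caudal gene was called higher in Frontal. NR2F1, a nuclear receptor that sets caudal area identity, stood at 7.93, 8.84 and 9.94 CPM in the Frontal libraries, against 210.5, 237 and 203 CPM in the Occipital ones. Its 3 Frontal libraries all lay far below its 3 Occipital ones (log2 fold change -4.62 ± 0.21, edgeR quasi-likelihood test, Benjamini-Hochberg adjusted p = 3.1e-13). Such a gap, with no overlap between the 6 libraries, was seen in 15.5% of all tested genes with Frontal above and in 13% with Occipital above. The related receptor gene NR2F2 had 1.65, 1.11 and 1.85 CPM in the Frontal libraries, against 5.44, 8.21 and 8.67 CPM in the Occipital ones, the same direction at a low level (-2.27 ± 0.28). FGFR3, an FGF receptor gene with a caudal-high gradient in mouse, had 73.6, 94.1 and 107 CPM in the Frontal libraries, against 393, 402 and 465 CPM in the Occipital ones. Again the regions did not overlap, and the log2 fold change was -2.20 ± 0.15.

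The homeobox genes EMX2 and LHX2 and the DM-domain gene DMRTA2 were lower in Frontal by smaller amounts. EMX2 averaged 38.1 ± 3.75 CPM in Frontal and 62.2 ± 5.09 CPM in Occipital (SD, n = 3 each), a log2 fold change of -0.72 ± 0.13. LHX2, which specifies cortical against midline fate, averaged 107 ± 19.6 CPM in Frontal and 176 ± 23.3 CPM in Occipital (-0.72 ± 0.14). DMRTA2, a factor that keeps cortical progenitors cycling in mouse, averaged 55.7 ± 8.92 CPM in Frontal and 89.9 ± 12.7 CPM in Occipital (-0.70 ± 0.15). Across the 14 tested caudal genes 0 were higher and 6 lower, with a median of -0.42; of all tested genes 12% were called higher and 10.7% lower. The other 8 did not pass. EMX1, at 6.05 to 9.25 CPM over the 6 libraries, stood at 0.16 ± 0.16. TCF7L2, a WNT effector gene with up to 2547 counts in a library, stood at 0.17 ± 0.12. WNT8B, WNT3A, WNT2B, DMRT3 and LHX9 stayed below 1 CPM in every library. WNT5A, a non-canonical WNT ligand gene, averaged 12 ± 0.924 CPM in Frontal and 10.4 ± 2.08 CPM in Occipital and was not called.

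Rostral genes did not move as a group. SP8, a zinc-finger factor of the rostral cortex and of interneuron progenitors, had 151, 145 and 206 CPM in the Frontal libraries, against 58.8, 70.5 and 106 CPM in the Occipital ones. Its Frontal libraries all lay above its Occipital ones (1.13 ± 0.12, edgeR quasi-likelihood test, Benjamini-Hochberg adjusted p = 1.3e-07). PAX6 was not called: it had 116, 112 and 107 CPM in the Frontal libraries, against 110.5, 121 and 107 CPM in the Occipital ones, with a log2 fold change of -0.01 ± 0.12. ETV1, ETV4 and ETV5, which FGF signalling induces, were at 0.49 ± 0.19, 0.34 ± 0.20 and -0.36 ± 0.26 and none passed. ETV1 came nearest (edgeR quasi-likelihood test, adjusted p = 0.062), and 7 of 16 alternatives called it higher. FEZF2, a gene of frontal progenitors and deep-layer neurons, averaged 5.34 ± 1.61 CPM in Frontal and 3.61 ± 0.477 CPM in Occipital and the WNT receptor gene FZD7 31.3 ± 2.5 CPM in Frontal and 39.9 ± 17.8 CPM in Occipital, neither of them called. Among 11 tested rostral genes 2 were higher and 2 lower, with a median of -0.01, beside 12% higher and 10.7% lower of all tested genes. The calls also took in SIX3, with at most 6 counts in a Frontal library and 0 in every Occipital one, and the ligand gene FGF17, below 1 CPM in all 6 libraries, calls that 3 of 16 alternatives ended for SIX3 and 2 of 14 for FGF17. FGF18 was as low, and FGF8 had at most 3 counts in a library and was not tested.

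**Figure D1:**
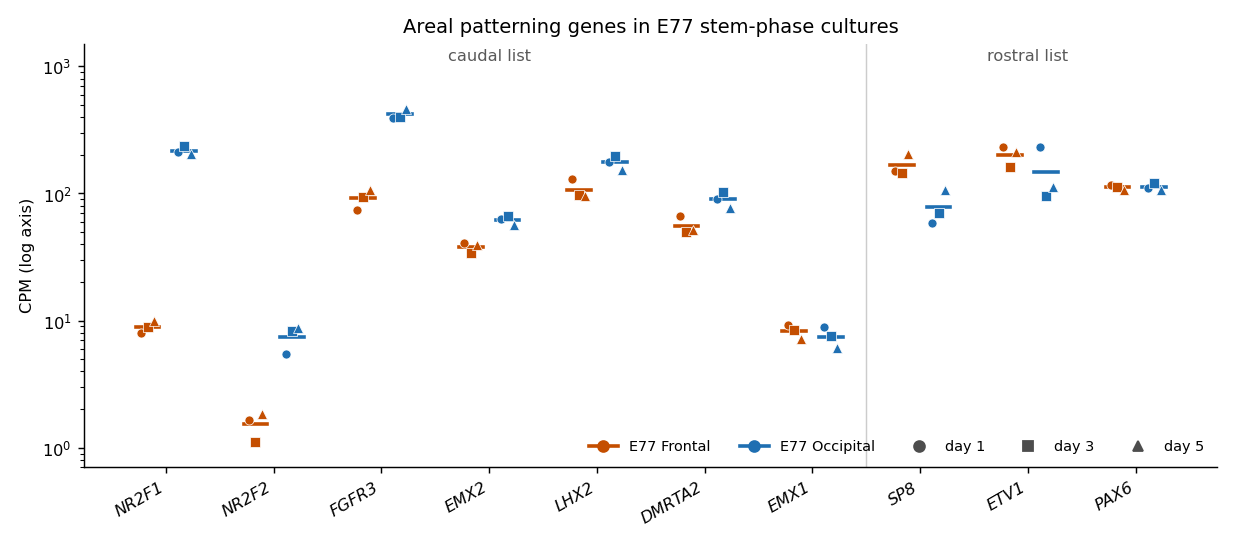
Levels of caudal and rostral patterning genes (CPM, log axis) in the 6 E77 stem-phase libraries, with Frontal left of Occipital for each gene, a symbol per day and a bar at the mean of the 3 libraries. NR2F1, NR2F2 and FGFR3 have the widest gaps, with Frontal below Occipital, SP8 has Frontal above, and PAX6 and EMX1 were not called.

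Most retinoid genes were not called. ALDH1A3, which makes retinoic acid, had 13.5, 3.83 and 2.55 CPM in the Frontal libraries, against 0.430, 0.235 and 0.109 CPM in the Occipital ones, so that Frontal lay above Occipital on every day (4.61 ± 0.73). The receptor gene RARG was lower in Frontal (-0.81 ± 0.22), a call that 2 of 16 alternative settings ended. Of 15 tested retinoid genes the remaining 13 were not called, among them the receptor gene RARA at 0.10 ± 0.14.
Genes with area-specific expression in cortical neurons went both ways, 4 higher and 5 lower of 14. Over all tested genes 12% were called higher and 10.7% lower, the shares to set beside this list and the retinoid one. The LIM-domain gene LMO3 averaged 16.3 ± 5.22 CPM in Frontal and 49.2 ± 9.09 CPM in Occipital (-1.61 ± 0.15), and the homeobox gene MEIS2 216 ± 8.01 CPM in Frontal and 348 ± 43.3 CPM in Occipital (-0.69 ± 0.14). CRYM, a thyroid hormone binding protein gene, and CDH8, a cadherin gene of frontal areas in mouse, were higher in Frontal at low levels, CRYM with 1.49, 2.25 and 1.11 CPM in the Frontal libraries, against 0.0391, 0 and 0.0364 CPM in the Occipital ones and CDH8 with 3.06, 2.17 and 1.23 CPM in the Frontal libraries, against 0.391, 0.117 and 0.364 CPM in the Occipital ones.

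Over all genes, 4720 were called, 22.7% of those tested: 2504 were higher in Frontal (12%) and 2216 lower (10.7%). The counts of called list members given below are to be read against these shares. The genes called lower numbered 1332 without the Frontal day 1 library and 1259 without Occipital day 3, and every gene shared with either fit kept its direction. The 12 largest positive differences among called genes with a symbol come first. They were taken from genes with a mean of at least 10 CPM in the higher region and the same sign on all 3 days. MMRN1, a multimerin of endothelial cells and platelets, had 18.1, 21.8 and 19.5 CPM in the Frontal libraries, against 0.0391, 0.117 and 0.109 CPM in the Occipital ones (7.90 ± 0.67). The matrix glycoprotein gene EFEMP1 had 53.1, 64.4 and 57.4 CPM in the Frontal libraries, against 0.508, 0.313 and 0.547 CPM in the Occipital ones, a gap of 7.04 ± 0.58. NPTX2, a secreted neuronal pentraxin, followed at 6.21 ± 0.46, with an average of 51.3 ± 12.6 CPM in Frontal and 0.885 ± 0.941 CPM in Occipital. Next came the caveolar coat gene CAV1 (5.55 ± 0.71), the neuronal intermediate filament gene PRPH (5.31 ± 0.37), the collagen gene COL8A1 (5.25 ± 0.71) and CD34, a sialomucin of endothelial and blood-forming cells (5.05 ± 0.57). The remaining 5 of the 12 largest were SPHK1, ADAMTS16, PRRX1, SLIT3 and ARMC3, at 4.92, 4.65, 4.92, 4.78 and 4.44. SPHK1 makes the lipid signal sphingosine 1-phosphate, and it had 73.4, 52.5 and 63.6 CPM in the Frontal libraries, against 2.43, 1.49 and 2.37 CPM in the Occipital ones.

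Of the 12 largest negative differences under the same rule, 3 belonged to transmitter receptors or a protein that binds them. GABRB1, a GABA-A receptor subunit gene, averaged 4.38 ± 1.06 CPM in Frontal and 51.4 ± 7.45 CPM in Occipital (-3.62 ± 0.30). The kainate receptor gene GRIK2 averaged 32.4 ± 14.1 CPM in Frontal and 216 ± 90.5 CPM in Occipital (-2.74 ± 0.35), and SHISA6, whose protein binds AMPA receptors, 16.8 ± 4.11 CPM in Frontal and 159.7 ± 68.0 CPM in Occipital (-3.19 ± 0.20). SEZ6L, a neuronal membrane protein gene, had 44.2, 48.0 and 101 CPM in the Frontal libraries, against 724, 557 and 425 CPM in the Occipital ones, a gap of -3.26 ± 0.27 that was smaller on each later day and was not called in a fit of the 6 libraries alone. GSX1, a homeobox gene of ganglionic eminence progenitors, had 0.496, 0.638 and 1.11 CPM in the Frontal libraries, against 5.59, 15.1 and 14.1 CPM in the Occipital ones (-3.99 ± 0.68). The WNT feedback inhibitor gene NKD1 had 1.53, 7.31 and 13.7 CPM in the Frontal libraries, against 28.8, 87.9 and 78.8 CPM in the Occipital ones (-3.23 ± 0.39). Others of the 12 were NR2F1, LRRC10B (-2.97), NDRG2 (-2.87), MDFI (-2.78) and DIPK1C (-2.78).

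**Figure D2:**
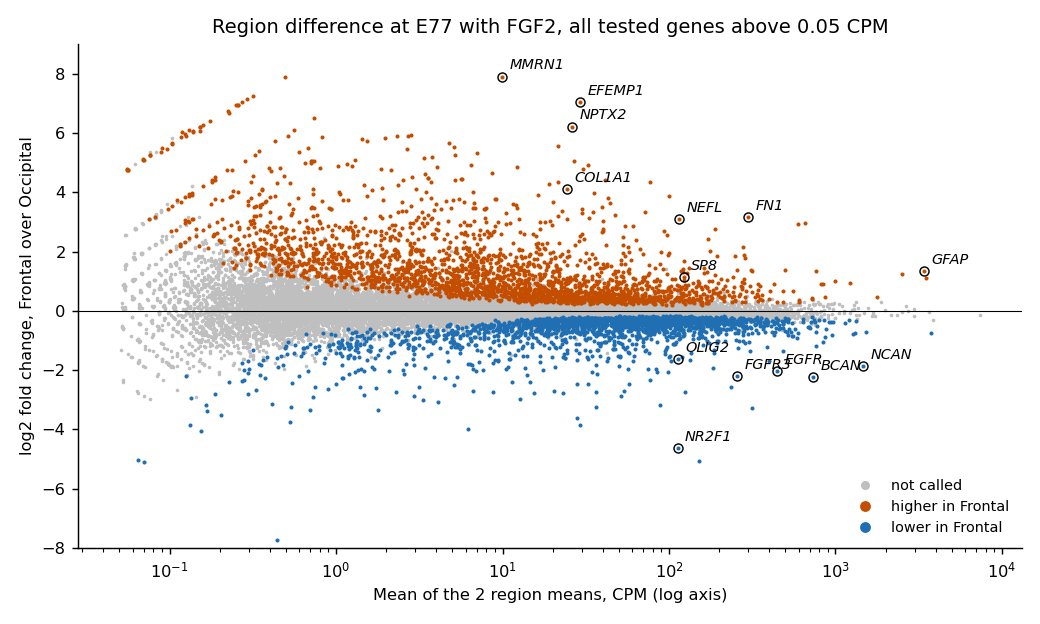
Log2 fold change of Frontal over Occipital against the mean level (CPM, log axis) for tested genes with a mean above 0.05 CPM; orange and blue points are called higher and lower in Frontal. The widest folds in Frontal lie at low to middle levels, as for MMRN1 and EFEMP1, while NR2F1 stands apart below.

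Several genes of early glial and oligodendrocyte progenitors were lower in Frontal. OLIG2, the transcription factor that starts the oligodendrocyte lineage, had 45.8, 55.8 and 61.4 CPM in the Frontal libraries, against 202, 159 and 157 CPM in the Occipital ones, with no overlap (-1.62 ± 0.26). Its relative OLIG1 had 25.2, 32.8 and 40.6 CPM in the Frontal libraries, against 165, 118 and 118 CPM in the Occipital ones (-1.96 ± 0.25). EGFR, the receptor of EGF on late progenitors and early glia, had 105, 216 and 218 CPM in the Frontal libraries, against 733, 838 and 569.6 CPM in the Occipital ones (-2.03 ± 0.25). PCDH15, a protocadherin gene of oligodendrocyte precursors, averaged 13.0 ± 3.90 CPM in Frontal and 55.8 ± 21.5 CPM in Occipital (-2.05 ± 0.17), and SOX8 181 ± 44.2 CPM in Frontal and 388 ± 112 CPM in Occipital (-1.09 ± 0.17). Lower levels in a bulk culture can come from fewer cells of a type or from less RNA per cell, and these cannot be told apart here.

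Not every gene of the oligodendrocyte lineage followed. Of its 16 tested genes 4 were higher and 6 lower, with a median of -0.20. PDGFRA, the growth factor receptor of the precursors, was at -0.65 ± 0.28 and not called, though 4 of 16 alternatives called it lower. SOX10, which the lineage needs throughout, stood at -0.03 ± 0.47. The 4 higher genes were all at low levels. MBP, a myelin protein gene, had 2.15, 2.38 and 1.23 CPM in the Frontal libraries, against 0.391, 0.156 and 0.292 CPM in the Occipital ones, and the precursor factor gene NKX2-2 2.52, 1.91 and 2.05 CPM in the Frontal libraries, against 0.274, 0.196 and 0.656 CPM in the Occipital ones. The myelin gene MAG and BCAS1, a gene of newly formed oligodendrocytes, stayed under 6 CPM in every one of the 6 libraries (2.83 and 3.15). The calls of MBP, MAG and BCAS1 were lost in 6, 3 and 2 of 16 alternative settings.

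Several nuclear factor I and Notch genes were lower in Frontal as well. NFIX, which promotes gliogenesis, averaged 983 ± 214 CPM in Frontal and 1641 ± 219 CPM in Occipital (-0.75 ± 0.11), and NFIA 585 ± 112 CPM in Frontal and 949 ± 116 CPM in Occipital (-0.71 ± 0.09). Of 12 tested gliogenic factors 1 was higher and 6 lower, with a median of -0.50. The Notch effector gene HEY1 had 19.7, 34.3 and 38.3 CPM in the Frontal libraries, against 126, 119.9 and 109 CPM in the Occipital ones, so that each Frontal library lay below each Occipital one (-1.96 ± 0.19). HES5, a repressor that Notch induces in progenitors, had 36.1, 49.9 and 65.7 CPM in the Frontal libraries, against 134, 171 and 143 CPM in the Occipital ones (-1.56 ± 0.30). The Notch feedback gene NRARP averaged 42.5 ± 14.9 CPM in Frontal and 98.1 ± 44.6 CPM in Occipital (-1.18 ± 0.25), the glycosyltransferase gene LFNG 79.6 ± 16.2 CPM in Frontal and 154 ± 12.6 CPM in Occipital (-0.93 ± 0.21) and the ligand gene DLL1 162 ± 25.9 CPM in Frontal and 280.4 ± 36.5 CPM in Occipital (-0.78 ± 0.17). Among the 15 tested Notch genes 0 were higher and 6 lower, with a median of -0.38; HES1, the other main effector, was at -0.30 ± 0.13 and not called. The receptor gene NOTCH1 was called at -0.31 ± 0.10, a call that 7 of 16 alternatives ended.

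BMP pathway genes were lower in 6 of 18 cases and higher in 1, with a median of -0.28. The ligand gene BMP2 averaged 12.3 ± 3.0 CPM in Frontal and 34.5 ± 14.9 CPM in Occipital (-1.44 ± 0.21), the signal transducer gene SMAD9 20.6 ± 5.83 CPM in Frontal and 64.1 ± 13.8 CPM in Occipital (-1.69 ± 0.20) and the bHLH inhibitor gene ID4 128 ± 29.3 CPM in Frontal and 262 ± 64.1 CPM in Occipital (-1.0 ± 0.21); SMAD9 and ID4 were not called in a fit of the 6 libraries alone. BAMBI, a decoy receptor that dampens BMP signals, was the one higher gene, with an average of 10.5 ± 2.52 CPM in Frontal and 3.61 ± 1.96 CPM in Occipital (1.56 ± 0.22).

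Radial glial and astrocytic genes went both ways. The intermediate filament genes were higher in Frontal: VIM averaged 4766 ± 604 CPM in Frontal and 2184 ± 372 CPM in Occipital (1.12 ± 0.15), NES 1616 ± 142 CPM in Frontal and 836 ± 225 CPM in Occipital (0.94 ± 0.18), and GFAP, the filament of astrocytes and of primate radial glia, 4884 ± 769 CPM in Frontal and 1944 ± 234 CPM in Occipital (1.33 ± 0.19). In each of the 3 the Frontal libraries lay above the Occipital ones. PTPRZ1, a receptor phosphatase of radial glia and oligodendrocyte precursors, was lower (-0.76 ± 0.12), with 2668, 2685 and 2957 CPM in the Frontal libraries, against 5727, 4782 and 3799.9 CPM in the Occipital ones. ALDH1L1, a folate enzyme of astrocytes, had 7.23, 7.31 and 9.20 CPM in the Frontal libraries, against 33.2, 22.8 and 20.8 CPM in the Occipital ones (-1.72 ± 0.25), and the aldolase gene ALDOC averaged 30.3 ± 13.3 CPM in Frontal and 84.7 ± 53.3 CPM in Occipital (-1.41 ± 0.28). CLU, a secreted chaperone of astrocytes, was higher (0.89 ± 0.18), while the water channel gene AQP4 and the glutamate transporter gene SLC1A3 were not called (0.04 and -0.13).
Across 16 radial glial genes 2 were higher and 6 lower (median -0.20), and across 15 astrocyte genes 5 were higher and 4 lower (median 0.04). The shares over all tested genes were 12% higher and 10.7% lower. SOX2 was called lower at -0.28 ± 0.10, but 10 of 16 alternatives ended that call. Of 11 outer radial glial genes 3 were higher and 1 lower. TNC, a matrix protein of outer radial glia, averaged 3488 ± 460.1 CPM in Frontal and 1501 ± 487 CPM in Occipital (1.24 ± 0.28, not called without the day 1 libraries), and HOPX, their best-known marker, was not called (0.19 ± 0.18).

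Several neuronal cytoskeletal genes were higher in Frontal. The neurofilament light gene NEFL had 304, 161 and 151 CPM in the Frontal libraries, against 40.4, 14.8 and 19.9 CPM in the Occipital ones, which left no overlap (3.10 ± 0.39). NEFM, the medium chain, averaged 69.4 ± 20.9 CPM in Frontal and 11.1 ± 4.77 CPM in Occipital (2.69 ± 0.33), and the growth-cone gene GAP43 had 105, 103 and 109 CPM in the Frontal libraries, against 8.14, 14.6 and 40.0 CPM in the Occipital ones (2.39 ± 0.42, not called in a fit of the 6 libraries alone). SYT1, a calcium sensor of synaptic vesicles, averaged 32.9 ± 2.60 CPM in Frontal and 16.7 ± 2.78 CPM in Occipital (0.98 ± 0.11). DCX and MAP2, microtubule proteins of young neurons, were at 0.18 ± 0.14 and -0.13 ± 0.09 and were not called. Of 14 pan-neuronal genes 5 were higher and 1 lower, with a median of 0.34; of 15 synapse genes 1 was higher and 5 lower, with a median of -0.16. SYP, the vesicle protein synaptophysin, was on the lower side (-0.90 ± 0.18).

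GAD1, which makes the transmitter GABA, had 42.3, 74.4 and 122 CPM in the Frontal libraries, against 7.0, 10.9 and 59.8 CPM in the Occipital ones. It stood higher on each later day in both regions, with Frontal above Occipital on the same day but the Frontal day 1 level below the Occipital day 5 level (1.95 ± 0.27, not called in a fit of the 6 libraries alone). Of 15 GABAergic genes 3 were higher and 1 lower, with a median of 0.92; the factors DLX1 and DLX2 were not called (0.12 and 0.04). EOMES, the marker of intermediate progenitors of the excitatory lineage, had 3.39, 9.90 and 12 CPM in the Frontal libraries, against 0.0391, 0.587 and 1.46 CPM in the Occipital ones (3.71 ± 0.60). NEUROG2 was not called (-1.96 ± 0.75), though 3 of 16 alternatives called it lower. Of 12 intermediate progenitor genes 2 were higher and 1 lower, and of 14 glutamatergic genes 2 were higher and 2 lower. Over all tested genes the shares were 12% and 10.7%. RELN, a secreted protein of Cajal-Retzius cells and interneurons, averaged 15.7 ± 7.5 CPM in Frontal and 3.56 ± 1.51 CPM in Occipital (2.10 ± 0.36, not called in a fit of the 6 libraries alone); of 6 tested Cajal-Retzius genes 3 were higher and 0 lower.

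Most genes of the extracellular matrix list were higher in Frontal. FN1, which encodes fibronectin, had 768, 423 and 428 CPM in the Frontal libraries, against 72.4, 61.6 and 47.4 CPM in the Occipital ones (3.16 ± 0.33, edgeR quasi-likelihood test, Benjamini-Hochberg adjusted p = 2.6e-07). COL5A2, a fibrillar collagen gene, averaged 132 ± 14 CPM in Frontal and 44.1 ± 2.88 CPM in Occipital (1.58 ± 0.16), and SPARC, a collagen-binding protein gene, 1323 ± 79.1 CPM in Frontal and 662 ± 19.8 CPM in Occipital (1.0 ± 0.14). The laminin gene LAMB1 averaged 15.1 ± 5.12 CPM in Frontal and 4.06 ± 0.495 CPM in Occipital (1.88 ± 0.38). Of 21 matrix genes 13 were higher and 4 lower, with a median of 0.66.
The 4 lower genes were LAMA1 and the lecticans of brain matrix. BCAN, a lectican of glia and perineuronal nets, had 145, 266 and 398 CPM in the Frontal libraries, against 952, 1299 and 1347 CPM in the Occipital ones (-2.22 ± 0.20). NCAN had 255, 583 and 1239.6 CPM in the Frontal libraries, against 1280.2, 2516 and 2961 CPM in the Occipital ones (-1.87 ± 0.21), and VCAN averaged 548 ± 72.8 CPM in Frontal and 1131 ± 106 CPM in Occipital (-1.05 ± 0.09). The laminin chain gene LAMA1 averaged 50.1 ± 6.36 CPM in Frontal and 138 ± 30.9 CPM in Occipital (-1.46 ± 0.15).

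Several markers of mesenchymal, endothelial and choroid plexus cells were higher in Frontal beside the matrix genes. The mesenchymal homeobox gene PRRX1 had 7.19, 13.7 and 16.8 CPM in the Frontal libraries, against 0.352, 0.430 and 0.437 CPM in the Occipital ones (4.92 ± 0.53), and the type I collagen gene COL1A1 had 55.2, 45.3 and 38.8 CPM in the Frontal libraries, against 2.58, 2.62 and 2.81 CPM in the Occipital ones (4.12 ± 0.45). Of 16 mesenchymal genes 7 were higher and 0 lower, with a median of 1.48, and their summed level was 188 to 220.0 CPM in Frontal and 95.7 to 115 CPM in Occipital. Pericyte genes PDGFRB and KCNJ8 were not called (0.05 and 0.36). PDGFRB had the highest count of the list in any of the 6 libraries, at 2404, so the sums lean on a gene that was not called. FOXC2 had 0 counts in Frontal.
PECAM1, an adhesion protein of endothelial cells, had 18.1, 16.0 and 15.8 CPM in the Frontal libraries, against 1.64, 2.54 and 2.00 CPM in the Occipital ones (3.0 ± 0.28), and the tight-junction gene CLDN5 averaged 2.42 ± 0.636 CPM in Frontal and 0.642 ± 0.231 CPM in Occipital (1.95 ± 0.48). Of 8 tested endothelial genes 4 were higher and 1 lower, with a summed level of 33.8 to 46.0 CPM in Frontal and 12.4 to 15.7 CPM in Occipital; CDH5, the defining cadherin, had at most 2 counts in a library, and EMCN and TIE1 were too low to test. Of 12 tested choroid plexus and hem genes 4 were higher and 0 lower, with a summed level of 38.4 to 97.8 CPM in Frontal and 2.11 to 15.0 CPM in Occipital. CXCL14 made up most of it in each Frontal library, and it was not called in a fit of the 6 libraries alone. TTR, the main product of choroid plexus, had 0 counts in all 6 libraries. Microglial and erythroid genes were near absent, with 3 of 12 and 0 of 8 tested. The part of such cells in the other differences was not tested.

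Several genes of the IGF system were higher in Frontal. IGF1, the ligand, had 8.10, 7.99 and 6.08 CPM in the Frontal libraries, against 0.156, 0.352 and 0.109 CPM in the Occipital ones (5.18 ± 0.75), and IGFBP3, its carrier in the fluid around cells, had 204, 111 and 81.9 CPM in the Frontal libraries, against 14.7, 7.08 and 13.1 CPM in the Occipital ones (3.34 ± 0.59). The receptor substrate gene IRS2 averaged 213 ± 5.08 CPM in Frontal and 124 ± 17.2 CPM in Occipital (0.77 ± 0.13). Among 13 IGF genes 7 were higher and 1 lower, with a median of 0.50; the receptor gene IGF1R was not called (-0.24 ± 0.10). A list of TGF-beta and YAP genes held ligands and pathway components as well as targets. Of its 14 tested genes 7 were higher and 0 lower (median 1.45). Among all tested genes 12% were called higher and 10.7% lower. THBS1, a matrix protein that activates TGF-beta, averaged 295 ± 60.9 CPM in Frontal and 94.7 ± 71.2 CPM in Occipital (1.87 ± 0.29, not called in a fit of the 6 libraries alone), and the ligand gene TGFB1 27.3 ± 8.64 CPM in Frontal and 9.96 ± 3.89 CPM in Occipital (1.48 ± 0.31). The YAP targets CCN1 and CCN2 were not called (0.31 ± 0.42 and -0.66 ± 0.80).

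Of 26 genes for cues that steer axons and their receptors, 11 were higher and 3 lower, where 12% of all tested genes were called higher and 10.7% lower. SLIT2, a repellent ligand, averaged 30.5 ± 13.9 CPM in Frontal and 7.91 ± 3.64 CPM in Occipital (1.95 ± 0.30), while SLIT1 was lower, at 1.73, 4.76 and 6.36 CPM in the Frontal libraries, against 3.05, 21.5 and 27.7 CPM in the Occipital ones (-1.88 ± 0.33). SLIT3 had 104, 44.3 and 27.2 CPM in the Frontal libraries, against 3.60, 1.13 and 1.38 CPM in the Occipital ones (4.78 ± 0.45). The semaphorin gene SEMA3C averaged 9.35 ± 2.35 CPM in Frontal and 0.709 ± 0.405 CPM in Occipital (3.74 ± 0.36), its co-receptor gene NRP1 47.9 ± 6.27 CPM in Frontal and 20.9 ± 5.03 CPM in Occipital (1.19 ± 0.17) and the ephrin gene EFNB2 341 ± 36.3 CPM in Frontal and 206 ± 20.0 CPM in Occipital (0.72 ± 0.12). ROBO1, a SLIT receptor gene, was not called (-0.46 ± 0.19).

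Proliferation genes differed little, and where they passed they were higher in Frontal. TYMS, which makes thymidylate for DNA synthesis, averaged 145 ± 33.8 CPM in Frontal and 96.5 ± 25.9 CPM in Occipital (0.60 ± 0.10), and RRM2, a ribonucleotide reductase subunit gene, 237 ± 30.1 CPM in Frontal and 155 ± 36.0 CPM in Occipital (0.62 ± 0.12). Of 18 DNA replication genes 5 were higher and 0 lower (median 0.25), and of 19 mitosis genes 5 were higher and 0 lower (median 0.38). For all tested genes the shares were 12% and 10.7%. MKI67, the usual marker of cycling cells, averaged 872 ± 90.1 CPM in Frontal and 742 ± 102 CPM in Occipital and was not called (0.24 ± 0.13). The mitotic kinase gene CDK1 was called at 0.64 ± 0.16, though not without the day 1 libraries.
CCND1, the cyclin that FGF signals induce for entry into the cell cycle, differed more: it had 88.0, 24.3 and 19.8 CPM in the Frontal libraries, against 6.65, 3.01 and 4.30 CPM in the Occipital ones (3.10 ± 0.46). HMGA1, a chromatin protein of early progenitors, averaged 230.4 ± 32.1 CPM in Frontal and 93.0 ± 19.9 CPM in Occipital (1.29 ± 0.17). Of 10 genes of early cortical progenitors 5 were higher and 0 lower, with a median of 1.07, or 0.82 with LIN28A, which had 0 counts in Occipital, at the bound that 3 counts over the region allow. LIN28B and IGF2BP3, regulators of early growth, were not called (-0.20 and -0.05).

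FGF receptors went opposite ways: FGFR1 averaged 428 ± 134 CPM in Frontal and 257 ± 49.6 CPM in Occipital (0.71 ± 0.13), and FGFR2 66.2 ± 5.27 CPM in Frontal and 144 ± 50.7 CPM in Occipital (-1.12 ± 0.21), with FGFR3 lower as above. Feedback targets of the pathway did not move together. DUSP6, SPRY2 and SPRY4, inhibitors that FGF signals induce, were at -0.26 ± 0.33, -0.50 ± 0.20 and -0.00 ± 0.23 and not called. For SPRY2, 7 of 16 alternatives gave a call. Of 17 genes of the FGF list 2 were higher and 3 lower. WNT genes had 2 higher and 5 lower of 20; AXIN2, the common target of canonical WNT signals, was not called (0.16 ± 0.17). Hedgehog genes had 2 higher and 1 lower of 10, with the target PTCH1 at 0.06 ± 0.20. Among all tested genes 12% were called higher and 10.7% lower. The other lists of metabolism, stress and immunity had at most 3 higher and 2 lower each. Glycolysis and hypoxia genes had 3 higher and 1 lower of 19, and MHC genes 2 higher and 0 lower of 7. Cholesterol genes had 0 higher and 1 lower of 15, and stress genes 1 higher and 2 lower of 13. Immediate early genes had 1 higher and 1 lower of 12, and interferon genes 1 higher and 0 lower of 12. GAPDH, a glycolytic enzyme gene, averaged 1631 ± 173 CPM in Frontal and 1508 ± 79.7 CPM in Occipital (0.11 ± 0.14), and the sterol regulator gene SREBF2 386 ± 51.9 CPM in Frontal and 425 ± 63.3 CPM in Occipital (-0.14 ± 0.13).

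**Figure D3:**
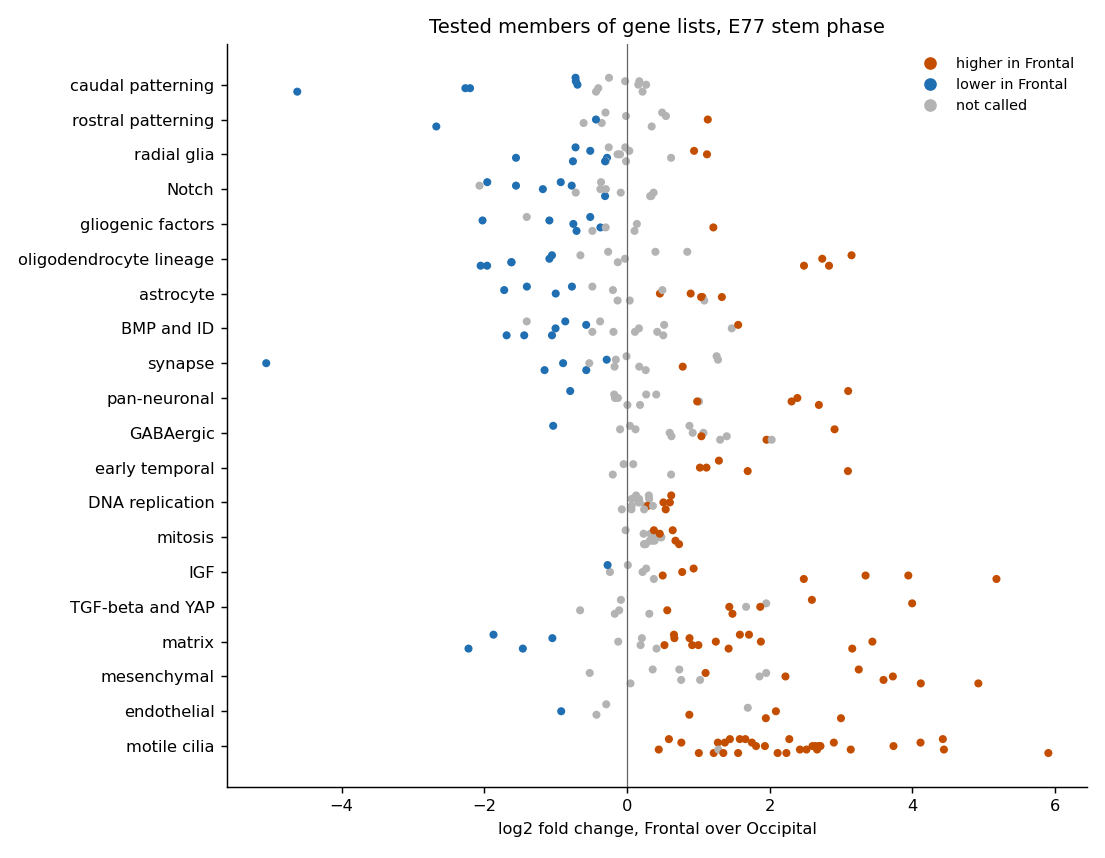
Log2 fold change of Frontal over Occipital for each tested member of 20 gene lists, leaving out members with 0 counts in all 3 libraries of a region. Matrix, mesenchymal and motile cilia genes spread to the right, Notch and caudal patterning genes to the left, and DNA replication and mitosis genes stay close to 0; the motile cilia list was added after its values were seen.

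The gap between the regions was not fixed over the days with FGF2, though few genes passed the test of a trend: 27 of 20794 shifted towards Frontal (0.13%) and 13 towards Occipital (0.0625%) between days 1 and 5. NNAT, an imprinted gene of the developing brain, had 95.4, 241 and 298 CPM in the Frontal libraries, against 407, 342 and 217 CPM in the Occipital ones, so that the regions changed places (2.55 ± 0.32, edgeR quasi-likelihood test, Benjamini-Hochberg adjusted p = 0.00071). PLPPR3, a membrane protein of growing axons, had 0.991, 3.44 and 16.4 CPM in the Frontal libraries, against 11.3, 12.4 and 20.8 CPM in the Occipital ones, nearly level by day 5. SPON1, a secreted axon guidance protein gene, had 6.90, 10.7 and 28.5 CPM in the Frontal libraries, against 135, 70.2 and 73.1 CPM in the Occipital ones. The Occipital level stood lower on day 3 than on day 1, and the Frontal level higher on day 5.
NXPH3, a neurexophilin gene, had 1.07, 2.25 and 3.65 CPM in the Frontal libraries, against 24.9, 13.1 and 7.72 CPM in the Occipital ones, and the cartilage collagen gene COL2A1 15.0, 8.42 and 15.4 CPM in the Frontal libraries, against 125, 21.7 and 21.4 CPM in the Occipital ones. Both stayed lower in Frontal on all 3 days.
Among genes with the opposite trend, the ubiquitin ligase gene HECW1 had 20.5, 20.8 and 18.7 CPM in the Frontal libraries, against 2.46, 4.73 and 8.60 CPM in the Occipital ones and the cell adhesion gene CNTNAP2 13.9, 13.3 and 13.5 CPM in the Frontal libraries, against 1.37, 4.89 and 7.87 CPM in the Occipital ones. In both, Frontal kept its level while Occipital stood higher on each later day. SLC28A1, a nucleoside transporter gene, had 8.96, 14.2 and 9.98 CPM in the Frontal libraries, against 0.313, 5.12 and 11.1 CPM in the Occipital ones. ALPK3, an alpha-kinase gene, had 72.0, 120.2 and 97.0 CPM in the Frontal libraries, against 16.2, 46.3 and 79.9 CPM in the Occipital ones, and the cadherin gene CDH13 had 34.7, 14 and 10.8 CPM in the Frontal libraries, against 12, 9.54 and 12.3 CPM in the Occipital ones, with Frontal above Occipital on day 1 alone by a wide margin.
None of these trends can be checked within a day, since each region has 1 library per day; leaving out either day 1 library left 0 genes called, and leaving out Frontal day 5 left 3. Without Occipital day 5, 19 genes shifted towards Frontal and 25 towards Occipital. The call of ALPK3 was lost in 11 of 13 alternatives.

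**Figure D4:**
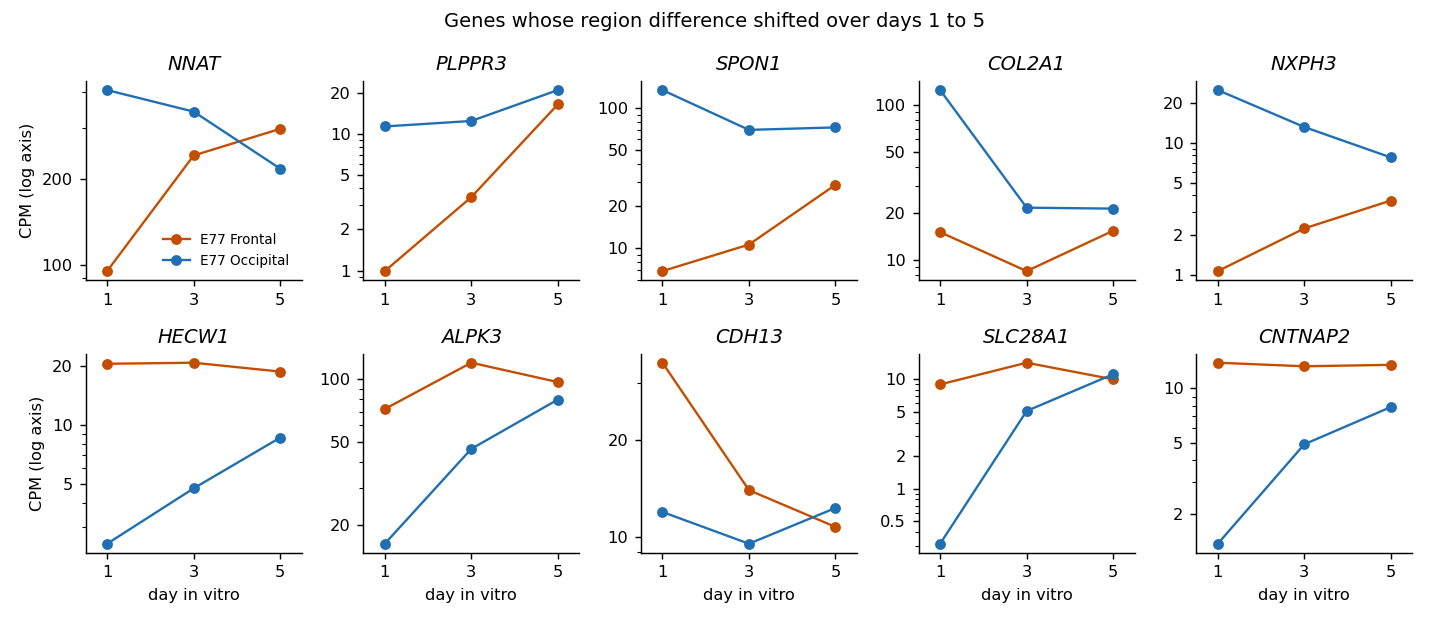
Levels (CPM, log axis) on days 1, 3 and 5 of 10 genes with large called shifts of the Frontal and Occipital gap. They are the 5 largest shifts each way among genes with a symbol and a mean of 10 CPM in a region. The upper 5 shift towards Frontal and the lower 5 towards Occipital. NNAT crosses over between days 3 and 5, and HECW1 and CNTNAP2 are flat in Frontal while Occipital climbs.

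After FGF2 was withdrawn, the region difference changed in some genes. The difference changed in 5.64% of all tested genes, of which 611 (2.94%) had a more positive Frontal over Occipital difference in the stem phase than in the terminal phase, and 561 (2.7%) a more negative one. These counts were 400 and 248 without Frontal day 1, 444 and 333 without Frontal day 3, 350 and 250 without Occipital day 3, and 787 and 882 without Occipital day 5. NR2F1 kept most of its gap, with 16.8, 16.8, 22.1 and 24.6 CPM in Frontal, against 168, 192, 161 and 155 CPM in Occipital, on days 11, 14, 17 and 20, although the change of its gap was called (-1.53 ± 0.25). OLIG2 stood higher on each later day in both regions and had 73.1, 118, 198 and 246 CPM in Frontal, against 233, 420.5, 509 and 594 CPM in Occipital; the change of its gap was not called (-0.10 ± 0.33).
NPTX2 had 1.01, 0.986, 2.15 and 1.51 CPM in Frontal, against 0.630, 1.96, 1.66 and 2.66 CPM in Occipital, so that the regions overlapped. EFEMP1 averaged 16.2 ± 4.05 CPM in terminal Frontal and 6.51 ± 1.37 CPM in terminal Occipital (SD, n = 4 each). NEFL averaged 167 ± 32.0 CPM there in Frontal and 124 ± 50.5 CPM in Occipital, and its gap differed between the phases by 2.60 ± 0.48.
The ADAM protease gene ADAM12 was higher in Frontal with FGF2 (4.27 ± 0.70, not called in a fit of the 6 libraries alone), with 43.1, 31.3 and 32.7 CPM in the Frontal libraries, against 1.33, 0.821 and 4.34 CPM in the Occipital ones, and in the terminal phase it averaged 28.7 ± 13.3 CPM in Frontal and 66.7 ± 34.0 CPM in Occipital. BRINP1, a neural gene whose protein can hold back the cell cycle, averaged 82.0 ± 3.66 CPM in Frontal and 74.9 ± 19.1 CPM in Occipital there, and BCAS1 53.1 ± 50.5 and 159 ± 139 CPM.
On the other side, GSX1, SHISA6, COL2A1 and NXPH3 were among the genes with the largest negative differences. SHISA6 averaged 127 ± 37.5 CPM in terminal Frontal and 143 ± 25.7 CPM in terminal Occipital. Of 11 rostral genes 1 had a more positive and 1 a more negative difference in the stem phase than in the terminal phase, and of 14 caudal genes 1 and 3. Among them SP8 (0.70 ± 0.16), FGFR3 (-0.79 ± 0.19) and EMX2 (-0.61 ± 0.18) also had a called change of their gap, all with the wider gap in the stem phase; 1, 1 and 7 of 13 alternatives ended those calls. TCF7L2, not called in the stem phase, was the caudal gene with a more positive difference there (0.74 ± 0.16), and it averaged 105 ± 20.3 CPM in terminal Frontal and 157 ± 45.2 CPM in terminal Occipital; the call was lost with no replicate block.

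**Figure D5:**
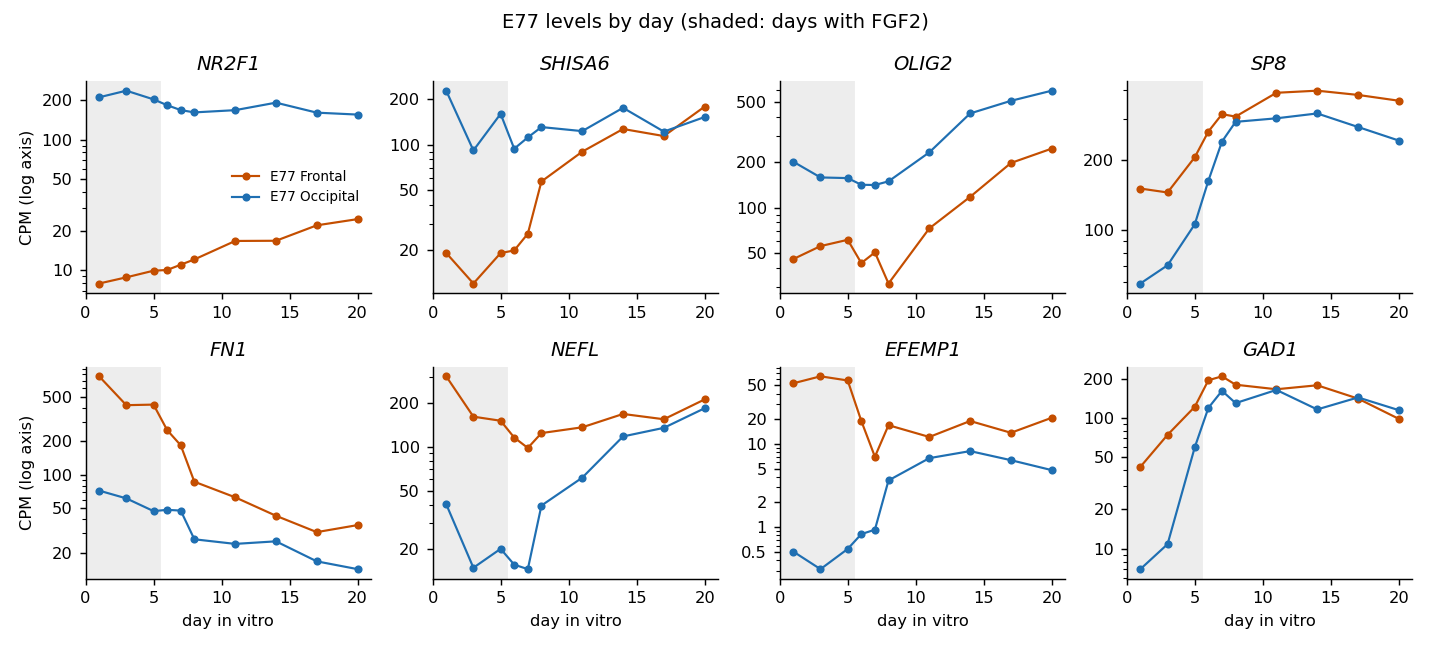
Levels (CPM, log axis) of 8 genes in E77 Frontal and E77 Occipital on the 10 sampled days in vitro, 1 library per point, with the days with FGF2 shaded. NR2F1 and OLIG2 keep Frontal below Occipital throughout, whereas SHISA6, NEFL and GAD1 come closer together after day 5.

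The region difference at E77 was not the same as that of E42 cortex in the same phase. The difference was called in 21.9% of all tested genes, of which 2029 (9.76%) had a more positive front-to-back difference at E77 and 2535 (12.2%) a more negative one; limma on log2(RPKM + 1) gave 4064 and 1709, which is 70.4% positive against 44.5%. NR2F1 averaged 69.0 ± 29.6 CPM in E42 Anterior and 183 ± 11.9 CPM in E42 Posterior (SD, n = 3 each), so that the gap at E77 was wider by -3.17 ± 0.27. FGFR3 differed at E42 as well, with 40.3 ± 4.69 CPM in Anterior and 266 ± 20.9 CPM in Posterior, and the change with age was not called (0.51 ± 0.20). SP8 averaged 197 ± 91.3 CPM in Anterior and 169 ± 64.2 CPM in Posterior, and its difference at E77 was more positive by 0.93 ± 0.17, a call lost with no replicate block.
EOMES stood lower in Anterior on each day at E42, with 5.72, 4.8 and 12.7 CPM in Anterior, against 13.7, 43.4 and 113 CPM in Posterior, so that the difference of the differences was 6.27 ± 0.73. SV2C, a synaptic vesicle protein gene, averaged 65.9 ± 13.6 CPM in Frontal and 4.91 ± 4.60 CPM in Occipital at E77, against 4.82 ± 1.62 CPM in E42 Anterior and 9.56 ± 4.91 CPM in E42 Posterior. MMRN1, EFEMP1 and NPTX2, among the largest differences at E77, were also among the 5 largest positive differences from E42 in genes reaching 10 CPM in a group.
FN1, the fibronectin gene, averaged 11836 ± 2877 CPM in E42 Anterior and 216 ± 84.6 CPM in E42 Posterior. Of 21 matrix genes 1 had a more positive and 19 a more negative difference at E77 than at E42, and of 16 mesenchymal genes 1 and 10. By the same measure the largest negative differences were those of TBX15, TMEM119, ADAMTS2, INHBE and TINAGL1, of which TBX15 and TINAGL1 had 0 counts in 1 of the 4 groups and are given no value. Of 12 alternatives 10 ended the call of TINAGL1, each left-out library among them, and 3 that of INHBE. TBX15, a mesenchymal T-box gene, averaged 44.4 ± 15.0 CPM in E42 Anterior and 0.244 ± 0.213 CPM in E42 Posterior, and it had 0 counts in E77 Frontal. The part of mesenchymal cells in these differences was not tested.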

How the data were processed

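Read counts per gene, as deposited, are the values analysed here. The RPKM values that the authors deposited, scaled by gene length and library size, served for 2 alternatives. The tools named are STAR and featureCounts, per the submitters' processing notes, with no versions; genome build and annotation are not given in the sources used here, so no coordinates are printed. Per the labels' protocols, mRNA was selected with oligo-dT beads and the libraries keep the strand. In R 4.3.3, edgeR 4.0.16 fitted all 38 libraries in 1 model of 12 groups (series by phase) with day in vitro as a block, TMM factors (0.9989 to 1.104 in the 6 libraries), filterByExpr and robust quasi-likelihood tests (19 residual degrees of freedom, 17 with the trend columns). Adjustment was by Benjamini-Hochberg over all tested genes, with calls at 0.05. The script was tested on simulated data.

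Contrasts were Frontal minus Occipital over days 1, 3 and 5; its linear change between days 1 and 5; and its difference from the terminal phase and from E42 Anterior minus Posterior. Deviations from the group mean had correlations of 0.437, 0.143 and 0.309 between same-day libraries of the regions. Libraries of unlike days had -0.403 to 0.132, the highest for Frontal day 3 with Occipital day 5. Deviations within a group cancel out, which lowers the values of unlike days. The labels give the day, so the block was kept. The 6 libraries were not repeats of each other: differences within pairs were 2.237 to 4.715 times counting noise. With Frontal, Occipital and the other groups spanning totals of 20149635 to 56363300 counts, genes of a few counts have wide errors.

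Genes were named by rule: the 12 largest called differences each way with a symbol, at least 10 CPM and the same sign on all 3 days; up to 4 called members of each list, with up to 2 uncalled ones of the highest level where fewer than 2 were called; all members of the patterning and retinoid lists; and, at 10 CPM in a compared group, 5 called each way for each other contrast. Some genes that fall under it are not reported here. Of the genes named, 119 fell under the rule and 59 were chosen after their values were seen. The comparison, the members and the gene lists were chosen with earlier results of these data known. A gene with 0 counts in all libraries of a group is given no fold; with such genes at the bound that 3 counts over the group allow, the median of 2 lists moved, to 0.82 in place of 1.07 (early temporal genes) and 0.52 in place of 0.64 (MHC). Alternatives were DESeq2 1.42.0 (size factors, Wald test), no low-count filter, no block, limma 3.58.1 on log2(RPKM + 1) and log2(RPKM + 0.1), fewer libraries, and each library left out.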

Additional observations from a re-analysis of the deposited data

Results flagged for a closer look

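Results in which 2 effects under the same contrast differed by a direct test of the difference are gathered here, all by edgeR's quasi-likelihood test, Benjamini-Hochberg adjusted at 0.05. For 10 genes with terminal levels in the text, single outlying libraries were looked for in the 2 terminal groups of 4; in none of the 20 cases did a library stand apart by Dixon's test, with a gap of at most 0.784 of the group's range. Groups of 3 were not tested.

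Between days 1 and 5 the Frontal over Occipital difference shifted upward in 27 genes and downward in 13. The log2 shift was 3.31 ± 0.53 for NXPH3, 3.11 ± 0.41 for PLPPR3, 2.93 ± 0.43 for SPON1, 2.59 ± 0.46 for COL2A1 and 2.55 ± 0.32 for NNAT. It was -4.43 ± 0.83 for SLC28A1, -2.42 ± 0.42 for CNTNAP2, -1.90 ± 0.34 for HECW1, -1.88 ± 0.39 for ALPK3 and -1.74 ± 0.34 for CDH13. Every one of these 10 calls was lost without the Frontal day 1 library and without Occipital day 1. That of ALPK3 was lost in 11 of 13 alternatives, each left-out library among them, and those of the others in 3 to 6. Whether the trend belongs to the regions or to single libraries was not tested.

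Between the stem and terminal phases the region difference changed in 611 genes with the stem phase more positive and 561 with it more negative. The difference of differences was 6.5 ± 0.59 for NPTX2, 5.73 ± 0.68 for EFEMP1, 5.46 ± 0.85 for ADAM12, 5.02 ± 0.71 for BRINP1, 4.67 ± 0.70 for BCAS1 and 2.60 ± 0.48 for NEFL. It was -3.58 ± 0.83 for GSX1, -3.03 ± 0.48 for COL2A1, -3.0 ± 0.24 for SHISA6 and -2.81 ± 0.45 for NXPH3. For the patterning genes it was -1.53 ± 0.25 (NR2F1), 0.70 ± 0.16 (SP8), -0.79 ± 0.19 (FGFR3), 0.74 ± 0.16 (TCF7L2) and -0.61 ± 0.18 (EMX2).

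Between E77 and E42 the front-to-back difference of the stem phase was more positive in 2029 genes and more negative in 2535. The difference of differences was 6.99 ± 0.58 for NPTX2, 6.27 ± 0.73 for EOMES, 4.91 ± 0.37 for SV2C, 4.81 ± 0.75 for EFEMP1, 4.65 ± 1.25 for MMRN1 and 0.93 ± 0.17 for SP8. It was -3.17 ± 0.27 for NR2F1. The values of -8.94 ± 0.65 for ADAMTS2, -8.71 ± 1.05 for TMEM119 and -8.63 ± 2.77 for INHBE rest on levels below 1 CPM in both E77 regions.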

How the results depend on the processing

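The direction of every called gene shared with another setting was the same for Frontal against Occipital in the stem phase. Its counts stayed within 1.5 times under other size factors, no filter, the DESeq2 Wald test, limma on RPKM and the 20 E77 libraries. Genes called lower numbered 1263 with no replicate block, 1276 with the 6 libraries alone and 1411 without day 1; leaving out single libraries gave 1723 to 2332 higher and 1259 to 2322 lower. The trend had 1 and 0 calls with no replicate block, 101 and 58 by the DESeq2 Wald test, 6 negative by limma on log2(RPKM + 1), 45 and 65 with the 20 E77 libraries, and 0 to 30 positive and 0 to 25 negative without single libraries. The stem minus terminal difference had 185 and 132 calls with no replicate block, and 350 to 787 and 248 to 882 without single libraries. The E77 minus E42 difference had 1085 positive calls with no replicate block, and 4064 and 4114 by limma on log2(RPKM + 1) and log2(RPKM + 0.1), where the median of all genes moved to 0.18 and 0.22; single libraries left out gave 1680 to 2006 and 2019 to 2491. The causes were not tested.

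Some named genes that were not called for Frontal against Occipital gained a call under some of the 16 alternatives. ETV1 and SPRY2 did so in 7 each and PDGFRA in 4. NEUROG2, NNAT and SLC28A1 did so in 3 each, IGF1R and ROBO1 in 2 each and FZD7 in 1. In 24 named genes that were not called, the sign of the log2 fold change of Frontal over Occipital turned under some setting, and no reversed value was called. With no low-count filter it was 0.00091 for SPRY4. By the DESeq2 Wald test it was 0.53 for CCN2, 0.19 for SOX10 and 0.038 for WNT3A. With no replicate block it was -0.0020 for AQP4, -0.0091 for CCN1 and -0.038 for DLX2. By limma on log2(RPKM + 1) it was 0.011 for IGF2BP3, 0.043 for PAX6, 0.052 for SOX10 and 0.065 for SPRY4. By limma on log2(RPKM + 0.1) it was 0.30 for CCN2, 0.011 for IGF2BP3, 0.046 for PAX6, 0.36 for SOX10 and 0.095 for SPRY4. With the 20 E77 libraries it was 0.027 for SPRY4. With the 6 libraries alone it was 0.24 for SOX10 and 0.036 for SPRY4. Without day 1 it was -0.0050 for AQP4, 2.10 for CCN2, 0.13 for CDH5, -0.048 for DLX1, -0.15 for DLX2, 0.10 for DUSP6, 0.13 for FGF18, 0.051 for FZD7, 0.14 for LIN28B, -0.012 for PTCH1, -0.032 for RARA, 0.067 for SPRY4, 0.84 for WNT3A and -0.013 for WNT8B. Without E42 Anterior it was 0.0031 for CCN2, 0.0021 for SOX10 and 0.0099 for SPRY4. Leaving out single libraries gave -0.14 to 0.17 for AQP4, -0.053 to 0.35 for AXIN2, -1.26 to 1.17 for CCN2, -2.92 to 0.41 for CDH5, -0.28 to 0.42 for DLX1, -0.38 to 0.41 for DLX2, -3.28 to 2.93 for DMRT3, -0.61 to 0.50 for DUSP6, -1.40 to 0.37 for FGF18, -0.60 to 0.042 for FZD7 and -0.99 to 0.11 for LHX9, and -0.23 to 2.82 for LIN28A, -1.23 to 0.14 for LIN28B, -0.12 to 0.081 for PAX6, -0.091 to 0.20 for PDGFRB, -0.23 to 0.25 for PTCH1, -0.058 to 0.30 for RARA, -0.54 to 0.92 for SOX10, -0.30 to 0.23 for SPRY4, -1.09 to 0.55 for WNT2B and -0.64 to 0.93 for WNT3A.

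The 3 replicates of a region are its days, and the labels name no animals, so no value measures a spread between animals. Genes below 1 CPM rest on few reads.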

Other observations

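Genes of motile cilia were higher in Frontal, a pattern noticed in the values of several of them and then described over a list of 34 such genes written afterwards. Of its 33 tested genes 32 were called higher in Frontal and 0 lower, where 12% of all tested genes were called higher, and the median log2 fold change was 2.11. FOXJ1, the transcription factor that switches on the motile cilia programme, had 110.3, 99.6 and 128 CPM in the Frontal libraries, against 31.7, 27.7 and 57.3 CPM in the Occipital ones (1.56 ± 0.27). HYDIN, a protein of the central pair of the axoneme, had 53.7, 74.9 and 74.9 CPM in the Frontal libraries, against 5.44, 9.38 and 19.5 CPM in the Occipital ones (2.66 ± 0.18). The regions did not overlap in 31 of the 33, both of these among them, where 28.5% of all tested genes had no overlap in either direction.

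The axonemal dynein gene DNAH7 averaged 26.1 ± 5.73 CPM in Frontal and 4.43 ± 2.92 CPM in Occipital (2.60 ± 0.34), the radial spoke gene RSPH1 7.05 ± 2.43 CPM in Frontal and 1.11 ± 0.771 CPM in Occipital (2.71 ± 0.28) and the microtubule inner protein gene TEKT1 13.9 ± 5.08 CPM in Frontal and 1.75 ± 1.99 CPM in Occipital (3.14 ± 0.39). DNAI2 was the tested gene not called, at under 1 CPM in all 6 libraries. Summed levels of the list were 771 to 1004 CPM in Frontal and 200.8 to 418 CPM in Occipital, and higher on day 5 than on day 1 in both regions. In 6 of the 33 genes the difference was more positive in the stem phase than in the terminal phase, and in 0 more negative, where 2.94% and 2.7% of all tested genes were. Ependymal and choroid plexus cells carry motile cilia in brain; their share in the cultures was not tested, and TTR, the main choroid plexus product, had 0 counts in all 6 libraries.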
